A study of Mus musculus with 3 samples.

Results

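The nuclear genes of oxidative phosphorylation were followed in mouse hepatocytes after a standard diet, after a high-fat diet with control IgG, and after a high-fat diet with an antibody that blocks the integrin VLA-4. They were picked out by a rule on gene names. A gene was a member if its name on the array began with Nduf followed by a, b, c, s, v or af, if it was Sdha, Sdhb, Sdhc or Sdhd, or if it began with Uqcr, with Cox and a digit from 4 to 8, or with Atp5. This gave 88 of the 31803 genes named on the array, read by 118 of 39395 probes and 127 of 43020 spots. The 88 comprised 7 core subunits, 29 accessory subunits and 4 assembly factors of complex I, 4 genes of complex II, 7 of complex III, 20 of complex IV and 14 of complex V. The remaining 3, Cox4nb, Atp5s and Atp5sl, matched the name pattern only. Their current RefSeq symbols are Emc8, Dmac2l and Dmac2, and none of the 3 is a subunit.

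Oxidative phosphorylation takes place in the inner mitochondrial membrane. Complex I passes electrons from NADH, and complex II from succinate, to coenzyme Q; complex III passes them on to cytochrome c, and complex IV to oxygen. Complexes I, III and IV pump protons as they do so, and complex V, the ATP synthase, uses the returning protons to make ATP. Hepatocytes are rich in mitochondria, which serve fatty acid oxidation, the urea cycle and glucose production in the fasted liver. Most subunits are encoded in the nucleus and a small set in mitochondrial DNA, so the gene sets are transcribed by separate machineries.

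All mice were male wild-type C57BL/6 animals that began their diet at 6 weeks of age, ate it for 16 weeks and were 22 weeks old at the end. Hepatocytes were isolated with collagenase after an overnight fast. The standard-diet group (SD throughout, never standard deviation) has no injection listed. The HFD-IgG group ate the high-fat diet and received control IgG, and the HFD-anti-VLA-4 group ate it and received the blocking antibody, both intraperitoneally, 2 times a week during the last 6 weeks. Diet and injection therefore cannot be told apart in any comparison with SD. How many mice stand behind each array is not given, and animals may have been pooled.

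Each group was hybridised to 1 single-colour Agilent array. There is no replicate array, so no p-value is given, the spread between mice or preparations is unknown, and the number of arrays limits the precision. The SD and HFD-IgG arrays lay on the same slide and the HFD-anti-VLA-4 array on another, and slide and antibody treatment cannot be told apart. A level below is the signal of a gene's brightest probe relative to the 75th percentile of the non-control spots of its array, so a level of 1 equals that percentile. Levels of different genes come from different probes and are not set against each other. Differences are log2 ratios of levels, and the scanner's own error of such a difference had a median of 0.20 over the members. In HFD-IgG over SD it was 0.2040 for Ndufs1 (level 34.3 on the SD array) and 0.2041 for Ndufab1 (3.37). Counts against it therefore act as a nearly fixed cutoff and measure no spread. Repeated spots of 399 probes had a median standard deviation in log2 of 0.155 (SD), 0.157 (HFD-IgG) and 0.125 (HFD-anti-VLA-4). Of the 10 hepatocyte markers, Alb, encoding albumin, was at 747 (SD), 762 (HFD-IgG) and 617 (HFD-anti-VLA-4). In HFD-IgG over SD 3 of the 10 were at least 1.5-fold lower, Cps1 (-1.14), Apoa1 (-0.73) and Hnf4a (-0.68), and 0 higher. Over all genes compared, 7.79% were lower and 27.9% higher by that fold. Markers of Kupffer cells were present as well, with a summed level over 10 genes of 10.2 (SD), 67.4 (HFD-IgG) and 51.2 (HFD-anti-VLA-4), as were 9 markers of sinusoidal endothelial cells, with sums of 15.1, 56.2 and 34.0. The sums over 9 stellate cell and fibroblast markers were 1.77, 18.8 and 9.33. In HFD-IgG over SD, 10 of 10, 8 of 9 and 8 of 9 of these markers were at least 1.5-fold higher, against 27.9% of all genes compared. In these bulk preparations, fewer cells of a type and less RNA per cell cannot be told apart.

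The members were read well. Of the 88 genes, 85 (96.6%) were well above background on all 3 arrays, against 53.5% of all genes on the array. The other 3, Cox7b2, Cox8b and Cox8c, were well above background on none, and no difference is given for them. The level exceeded the 75th percentile on all 3 arrays for 80 of the 88 (90.9%), against 24.3% of all genes. Because the members are bright, genes above that percentile on at least 1 array of a comparison (bright genes below) are given beside all genes as the background. This background is not matched to the members in brightness. On the SD array the members' median level was 49.3, whereas genes above the percentile on all 3 arrays (7726) had a median log2 level of 2.54. The part of brightness in the members' narrower spread was not tested.

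The members differed little between the arrays. From the lowest to the highest of the 3 arrays, the median member spanned 0.20 in log2, and 55 of the 85 spanned less than 1.2-fold. Only Ndufa4l2, Ndufaf4 and Cox6b2 spanned more than 1.5-fold. The HFD-anti-VLA-4 array held the lowest level for 60 of the 85 genes and the HFD-IgG array the highest for 52. With normexp, a model-based background correction, in place of the scanner's own, the median of the other bright genes moved from -0.10 to -0.55 in HFD-IgG over SD, and the members' median from 0.07 to -0.58. In that comparison 11 of the 85 members kept the sign of their difference with all 5 scalings, 56 lost it with normexp only and 18 differed among the others too. In HFD-anti-VLA-4 over HFD-IgG these counts were 36, 37 and 12, and in HFD-anti-VLA-4 over SD 37, 22 and 26. Signs of small differences below are therefore signs relative to the 75th percentile. Counts past 1.5-fold with normexp are given below without a share over all genes, and the shift of the bright genes enters them.

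**Figure D1:**
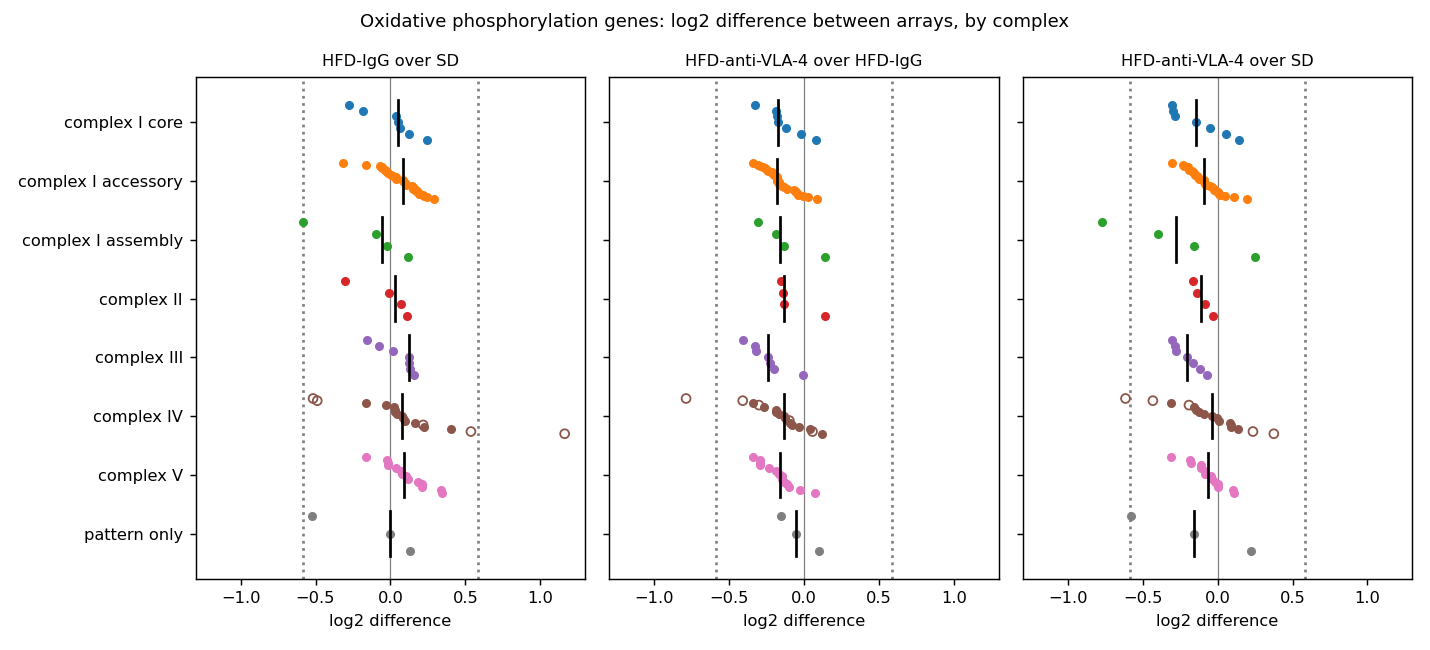
Log2 differences of the 85 compared members in each comparison (x axis), grouped by respiratory complex (y axis); open circles are tissue-specialised isoforms of complex IV, black bars are group medians and dotted lines mark 1.5-fold. Nearly all points lie within the dotted lines, and the 7 complex III genes lie below 0 in both comparisons of the HFD-anti-VLA-4 array, although 5 to 7 of them do so with other scalings or the mean over probes.

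The first comparison, HFD-IgG over SD, asks how the respiratory genes stood after the high-fat diet with control injections. The median difference of the 85 members was 0.07 (interquartile range -0.02 to 0.15), with 57 genes above 0 and 28 below. Of the members, 1 was at least 1.5-fold higher, against 27.9% of all genes compared and 7.04% of the bright genes. None (0 of 85) was at least 1.5-fold lower, against 7.79% of all genes and 7.23% of bright genes. At 2-fold the counts were 1 higher (20.4% of all genes, 4.27% of bright genes) and 0 lower (2.42% and 1.93%). The differences of 72 members stayed within 1.2-fold (84.7%, against 54.3% of the other bright genes), and 65 were smaller than the scanner error. The other bright genes, dimmer as a set, had a median of -0.10 and an interquartile range of 0.43, against 0.18 for the members. The members thus stood 0.17 above the other bright genes, and 0.15 to 0.18 above them with quantile scaling, cyclic loess or scaling on bright probes. With normexp the members' median was -0.58, and they stood at -0.03 relative to the others.

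The second comparison sets HFD-anti-VLA-4 over HFD-IgG and so the blocking antibody against control IgG on the same diet. The median of the members was -0.17, and 75 of 85 lay below 0. Of the members, 0 were at least 1.5-fold higher (7.11% of all genes compared, 3.9% of the bright genes) and 1 was at least 1.5-fold lower (23.3% of all genes, 3.2% of the bright genes). At 2-fold, 0 were higher (1.9% and 0.806%) and 0 lower (16.5% and 1.3%). For 59 genes the difference was smaller than the scanner error. The other bright genes were centred on 0.00, so the members stood 0.16 below them. This gap kept its sign with quantile scaling (-0.14), cyclic loess (-0.12) and normexp (-0.08), although with normexp the members' own median turned to 0.06 and only 31 of 85 lay below 0.

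The third comparison, HFD-anti-VLA-4 over SD, shares an array with each of the others. Its median was -0.09, with 64 of 85 genes below 0, and the other bright genes had a median of -0.10. No member (0 of 85) was at least 1.5-fold higher, against 16.3% of all genes and 7.61% of the bright ones. At least 1.5-fold lower were 2 members, Ndufaf4 and Cox6b2, against 9.42% and 7.07%. At 2-fold, 0 were higher (7.99% and 3.34%) and 0 lower (3.39% and 1.55%). With quantile scaling and cyclic loess the members' median was 0.00 and 0.02, and with normexp -0.50. Because the comparisons share arrays, a high value on the HFD-IgG array enters the first as a higher and the second as a lower difference.

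**Figure D2:**
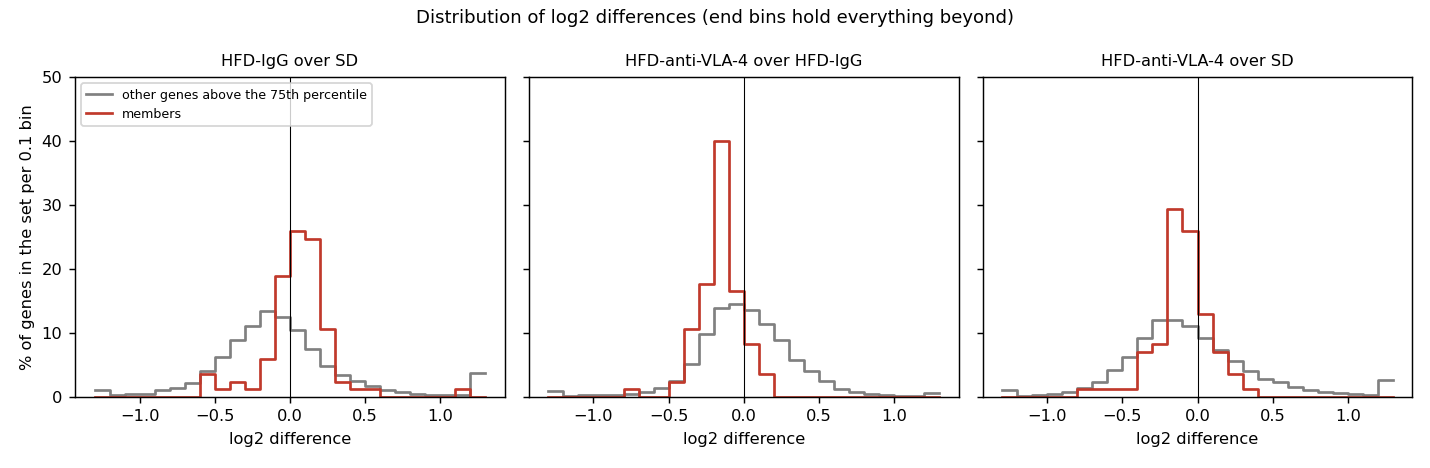
Share of genes (y axis, percent of the set per bin of 0.1) by log2 difference (x axis) for the 85 members (red) and the other bright genes (grey), which were dimmer as a set. The members form a narrow peak, centred at 0.07, -0.17 and -0.09, beside a wider distribution of the other genes centred at -0.10, 0.00 and -0.10; with normexp the members' centres were -0.58, 0.06 and -0.50.

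Within-array error could be read from Uqcrc2, a core subunit of complex III whose probe was spotted 10 times on each array. The mean level over the 10 spots, with its standard deviation, was 49.1 ± 1.34 (SD array), 44.1 ± 2.25 (HFD-IgG array) and 43.8 ± 1.79 (HFD-anti-VLA-4 array). The lowest SD spot read 46.4 and the highest HFD-IgG spot 47.3, so the spots of these arrays overlapped. This overlap rested on that SD spot alone, as the next lowest read 47.9. Repeated spots share the RNA and the hybridisation, and their spread says nothing of the spread between mice. Across the 23 members with several probes, the probes of a gene differed in their log2 difference by a median of 0.10, 0.13 and 0.13 in the 3 comparisons and by at most 0.37, 0.34 and 0.38. These widest gaps belonged to Ndufv3, Atp5c1 and Ndufv3, and 0 genes had probes past 1.5-fold in opposite directions. Gaps between probes thus reached the size of many differences between arrays.

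**Figure D3:**
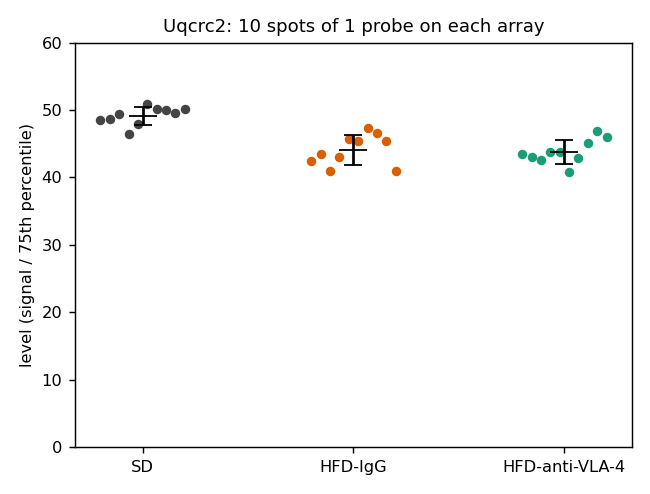
Level of each of the 10 spots of the Uqcrc2 probe (y axis, signal relative to the 75th percentile) on the 3 arrays (x axis); black marks show the mean and standard deviation over spots. The SD spots lie between 46.4 and 51.0 and those of the HFD-IgG array between 41.0 and 47.3.

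The nuclear core subunits of complex I form the arm that carries the redox centres. Ndufv1, which binds NADH, was at 72.1 (SD), 74.6 (HFD-IgG) and 59.4 (HFD-anti-VLA-4). Its difference of -0.33 in HFD-anti-VLA-4 over HFD-IgG exceeded the scanner error, but was -0.06 with normexp. Ndufv2, an iron-sulfur subunit beside it, was at 31.4, 34.2 and 30.4. Ndufs1, the largest subunit, with several iron-sulfur clusters, was at 34.3, 30.2 and 27.7 and was lowest on the HFD-anti-VLA-4 array (-0.31 against SD). Ndufs3, which joins the arm to the membrane part, was at 50.3, 52.7 and 55.7, and was the only core subunit whose highest level was on the HFD-anti-VLA-4 array. Ndufs7, which holds the last iron-sulfur cluster, was at 59.4, 49.0 and 48.3. It was the lowest of the core subunits in HFD-IgG over SD, at -0.28. Ndufs8, a further iron-sulfur subunit, was at 8.52, 10.1 and 8.87, the highest of them there at 0.24. The median of the 7 core genes was 0.05 in HFD-IgG over SD, -0.17 in HFD-anti-VLA-4 over HFD-IgG and -0.15 in HFD-anti-VLA-4 over SD.

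The 29 accessory subunits of complex I, which surround and stabilise the core, had medians of 0.09, -0.18 and -0.09 in the same order. Of the 29, 27 lay below 0 in HFD-anti-VLA-4 over HFD-IgG, though only 9 did so with normexp. Their range was narrow, from -0.32 (Ndufa8) to 0.29 (Ndufs5) in HFD-IgG over SD, and by brightest probe none passed 1.5-fold in any comparison. A dimmer probe of Ndufv3 did so in HFD-IgG over SD, at 0.59 (1.51-fold higher). With normexp 15 of the 29 passed downward in HFD-IgG over SD and 10 in HFD-anti-VLA-4 over SD. The other bright genes then had medians of -0.55 and -0.39. Ndufa8 was at 11.996 (SD), 9.64 (HFD-IgG) and 10.2 (HFD-anti-VLA-4). Ndufs5 was at 49.4, 60.5 and 51.1, high on the HFD-IgG array alone. Ndufab1, the mitochondrial acyl carrier protein, was at 3.37, 3.45 and 2.73, low on the HFD-anti-VLA-4 array (-0.34 against HFD-IgG). Ndufa7 hardly moved, at 69.8, 70.1 and 69.8. Ndufa13 was at 196, 217 and 212 (differences of 0.15, -0.04 and 0.11).

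The assembly factors help to build complex I and are not part of it. Ndufaf4, which acts with Ndufaf3 in assembling the coenzyme Q module, was at 6.10 (SD), 4.07 (HFD-IgG) and 3.58 (HFD-anti-VLA-4). Both high-fat diet arrays were low. Its difference was -0.58 in HFD-IgG over SD, just under 1.5-fold, and -0.77 in HFD-anti-VLA-4 over SD (1.70-fold lower), with scanner errors of 0.20. A dimmer probe of the gene read 4.51, 3.65 and 3.09, which gives -0.31 and -0.55. The differences of the brighter probe stayed below 0 with all 5 scalings, between -1.01 and -0.47 in HFD-IgG over SD and between -1.10 and -0.69 in HFD-anti-VLA-4 over SD. The probes lie in separate stretches of chromosome 4, and their first 30 bases are shown so that the measured transcript can be traced (build mm9, letters of the array design, no capitals).
Ndufaf4 brighter probe (chr4:24829194-24829223, plus strand): atacaagttcctgtgagttgagggccataa
Ndufaf4 dimmer probe (chr4:24830284-24830313, plus strand): catacttgcctcgagattccacgggaaaag
Ndufaf3 was at 2.38, 2.23 and 1.81. Ndufaf2 was at 4.51, 4.43 and 4.04, and Ndufaf1 at 4.91, 5.32 and 5.85. Ndufaf1, an assembly factor of the membrane arm, was the only 1 of the 4 with its highest level on the HFD-anti-VLA-4 array (0.25 against SD). In HFD-IgG over SD it was at 0.12, but at -0.30 with normexp.

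Complex II, which is succinate dehydrogenase and also belongs to the tricarboxylic acid cycle, moved little. Sdha, the flavoprotein that oxidises succinate, was at 37.2 (SD), 30.1 (HFD-IgG) and 33.1 (HFD-anti-VLA-4). It was the lowest of the 4 in HFD-IgG over SD (-0.30) and had the highest difference of any member in HFD-anti-VLA-4 over HFD-IgG (0.14), less than the scanner error. Sdhb, the iron-sulfur subunit, was at 101.2, 109 and 99.1. The membrane anchors Sdhc and Sdhd were at 21.2, 22.2 and 20.0 and at 56.3, 56.0 and 51.1. The latter 3 genes thus all lay within 1.2-fold over the arrays.

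In complex III the brightest probes of all 7 genes lay below 0 in both comparisons of the HFD-anti-VLA-4 array. With the mean over a gene's probes this was so for 5 of 7 in HFD-anti-VLA-4 over SD. Its median was 0.12 in HFD-IgG over SD, -0.24 in HFD-anti-VLA-4 over HFD-IgG and -0.21 in HFD-anti-VLA-4 over SD. With quantile scaling and cyclic loess 6 of 7 lay below 0 in HFD-anti-VLA-4 over HFD-IgG, and with normexp 5 of 7, with a median of -0.03. In HFD-anti-VLA-4 over SD 6 did so with quantile scaling and 5 with cyclic loess. Uqcrh, the hinge subunit that helps cytochrome c to bind, was at 122 (SD), 133 (HFD-IgG) and 99.98 (HFD-anti-VLA-4). Its difference in HFD-anti-VLA-4 over HFD-IgG was -0.41, and -0.10 with normexp. A dimmer probe read 72.0, 72.1 and 61.7 (-0.22). The probes are 60 bases long and share an identical run of 41 bases. The start of the brighter is shown, with the shared bases in capitals (build mm9).
Uqcrh brighter probe (chr4:115739601-115739630, minus strand): gtagcttctcttctgtgtgACTAGCAGTGA
Uqcr, a small subunit now named Uqcr11, was at 131, 132 and 106. Uqcrc1, a core subunit, was at 12.8, 14.0 and 11.1, and Uqcrfs1, the Rieske iron-sulfur protein, at 52.7, 50.1 and 43.6. Each of these was lowest on the HFD-anti-VLA-4 array. Uqcrq was at 217, 238 and 201, but a dimmer probe read 46.2, 50.4 and 53.5 and so went the other way on the HFD-anti-VLA-4 array (0.09 against HFD-IgG and 0.21 against SD). Uqcrb was at 66.2, 74.0 and 63.2, but its dimmer probes read 41.1, 43.8 and 45.8 and 21.3, 23.5 and 23.1. For Uqcrb the direction of the HFD-anti-VLA-4 array against HFD-IgG thus differed between probes (-0.23, 0.06 and -0.02). Uqcr10, a further subunit, carries an older clone name on the array and so is no member; it was at 76.8, 81.7 and 59.8 (-0.45 in HFD-anti-VLA-4 over HFD-IgG).

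Complex IV exists in forms that differ by tissue, and its ubiquitous and specialised isoforms are described apart. The 12 ubiquitous subunits had medians of 0.06, -0.13 and -0.02 in the 3 comparisons and an interquartile range of 0.09 in HFD-IgG over SD. Cox4i1, the ubiquitous form of a regulatory subunit, was at 196 (SD), 175 (HFD-IgG) and 180 (HFD-anti-VLA-4). Cox6a1 was at 459, 467 and 457, and Cox8a at 203, 217 and 204, both nearly level. Cox6b1, which faces the intermembrane space, was at 13.6, 14.0 and 12.3. Cox7b was at 76.5, 101.2 and 84.0, the highest of the ubiquitous subunits in HFD-IgG over SD (0.40, but -0.27 with normexp). Cox5b was at 57.8, 59.1 and 46.6, low on the HFD-anti-VLA-4 array (-0.34 against HFD-IgG). Cox7a2 was at 42.0, 44.3 and 39.5, and Cox7a2l, which takes part in joining complexes into supercomplexes, at 46.6, 49.4 and 45.3. Ndufa4, once assigned to complex I and now to complex IV, was at 60.6, 59.3 and 64.3.

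The specialised isoforms held several of the widest differences. Ndufa4l2, a relative of Ndufa4 known to be induced by low oxygen and to lower complex I activity, was at 0.186 (SD), 0.416 (HFD-IgG) and 0.241 (HFD-anti-VLA-4). The HFD-IgG array was high, the HFD-anti-VLA-4 array lay between, and the SD array was low. The difference of 0.38 in HFD-anti-VLA-4 over SD (0.68 with normexp) was the highest of the 85 members in that comparison. This was 2.24-fold higher in HFD-IgG over SD (log2 1.16, scanner error 0.21) and 1.73-fold lower in HFD-anti-VLA-4 over HFD-IgG (-0.79). The first value lay between 0.85 and 1.24 with all 5 scalings, and the second between -0.82 and -0.49, the latter with normexp and under 1.5-fold. It was the only member past 1.5-fold in either comparison. The summed stellate cell markers (1.77, 18.8 and 9.33) and the endothelial ones (15.1, 56.2 and 34.0) were also highest on the HFD-IgG array; their part in the result was not tested. Its single probe lies on chromosome 10, bases 126954149 to 126954208 of build mm9, and begins as follows.
Ndufa4l2 probe (chr10:126954149-126954178, plus strand): tgtccctggggatcaaacagaagcagccgt
Cox7a1, the heart and muscle form of Cox7a2, was at 2.07, 3.01 and 2.44 (0.54 in HFD-IgG over SD, and -0.04 with normexp). Cox6b2, the testis form of Cox6b1, was at 0.651, 0.455 and 0.425, which is -0.52 in HFD-IgG over SD and -0.61 in HFD-anti-VLA-4 over SD (1.53-fold lower, and -0.22 with normexp). Cox4i2, the lung form of Cox4i1, was at 0.420, 0.299 and 0.311 (-0.49 in HFD-IgG over SD, but 0.42 with normexp). Cox6a2, the heart and muscle form of Cox6a1, was at 0.0401, 0.0466 and 0.0351, and its sign in HFD-IgG over SD differed between scalings (0.22, below 0 with quantile scaling and cyclic loess, and 1.63 with normexp). The values of these dim genes moved with the background correction. The summed level of 8 striated muscle markers was 0.144, 0.612 and 0.248; its part in the values of the muscle isoforms was not tested. Cox7b2, Cox8b and Cox8c were not well above background on any array.

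**Figure D4:**
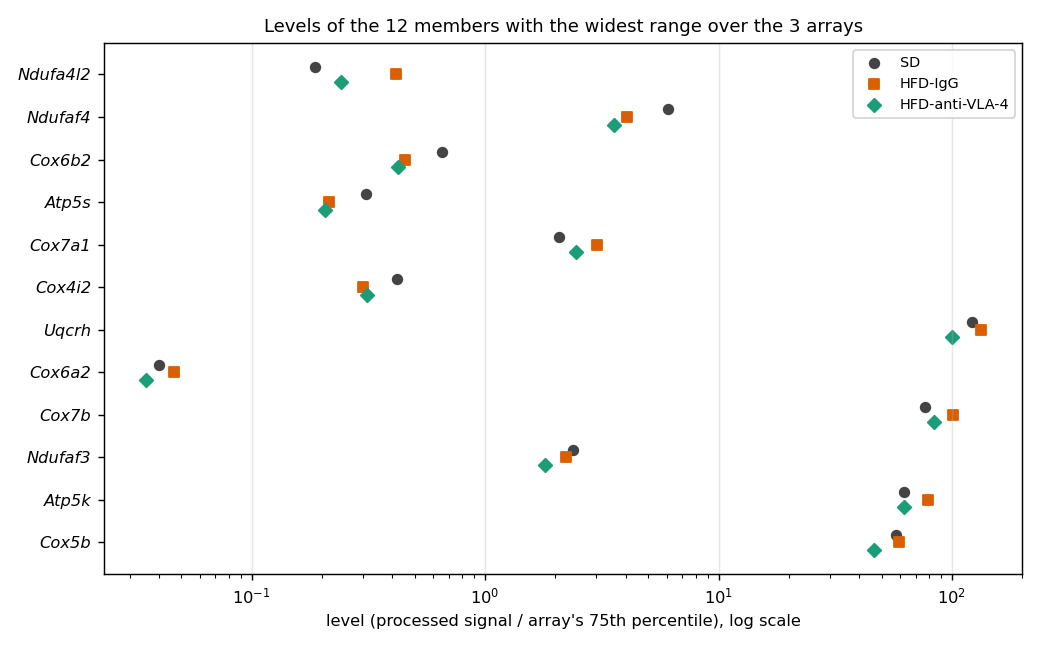
Levels on the 3 arrays (x axis, log scale, signal relative to the 75th percentile) for the 12 members with the widest range over the arrays (y axis, widest at the top); circles are SD, squares HFD-IgG and diamonds HFD-anti-VLA-4. Ndufa4l2 stands high on the HFD-IgG array (0.416), and Ndufaf4 stands high on the SD array (6.10) against both others; levels of different genes are not comparable.

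Complex V is built of the F1 part (the catalytic head with the central stalk), a peripheral stalk and a membrane part that includes the rotor ring. The 5 F1 genes had medians of 0.10, -0.15 and -0.08 in the 3 comparisons. By brightest probe all 5 lay below 0 in HFD-anti-VLA-4 over HFD-IgG. With normexp they stood at 0.23 (Atp5a1), 0.03 (Atp5b), 0.06 (Atp5c1), 0.20 (Atp5d) and -0.001 (Atp5e). A dimmer Atp5c1 probe read 12.8 (SD), 11.1 (HFD-IgG) and 13.1 (HFD-anti-VLA-4), which gives 0.24 in that comparison. Atp5b, the catalytic beta subunit, was at 184 (SD), 195 (HFD-IgG) and 171 (HFD-anti-VLA-4). Atp5a1, the alpha subunit, was at 76.6, 83.1 and 75.8. Atp5e, the epsilon subunit, was at 137, 158 and 129, high on the HFD-IgG array. The 4 genes of the peripheral stalk had medians of 0.03, -0.13 and -0.06. Among them Atp5o, the subunit that confers oligomycin sensitivity, was at 21.2, 19.0 and 17.2, the lowest of complex V in HFD-anti-VLA-4 over SD (-0.31). The 5 genes of the membrane part had medians of 0.18, -0.24 and 0.00. Atp5k, a subunit that helps the synthase to form dimers, was at 62.0, 78.8 and 62.2, high on the HFD-IgG array (0.35, but -0.35 with normexp). Atp5j2 was at 97.7, 124 and 105. Of the genes for the rotor's c subunit, Atp5g2 was at 85.0, 87.2 and 91.9 and Atp5g3 at 175, 174 and 155. A second Atp5g2 probe read 87.7, 91.2 and 76.7, so its direction on the HFD-anti-VLA-4 array differed between probes. Atp5g1 was not analysed here. Of the genes matched by pattern only, Atp5s was at 0.309, 0.215 and 0.207 (-0.52 in HFD-IgG over SD, 0.36 with normexp), Atp5sl at 5.70, 6.22 and 6.66, and Cox4nb at 1.60, 1.59 and 1.43.

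The promoters of the members were searched for short core motifs of factors known to drive respiratory genes. Of the 88 genes, 72 were matched to 78 RefSeq windows (build GRCm38.p6, 250 bases before to 50 after the start). Motifs were sought on either strand. The nuclear respiratory factor 1 (NRF1) core GCGCATGCG, which largely overlaps its own reverse complement CGCATGCGC, lay in 9 of the 72 genes (12.5%), against 1.95% of all 27025 genes in the table. The members shown have both orientations as a run of bases, in capitals.
Ndufaf4 (chr4:24897945-24898004, plus strand): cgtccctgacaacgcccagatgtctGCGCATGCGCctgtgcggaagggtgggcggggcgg
Ndufa11 (chr17:56717677-56717736, plus strand): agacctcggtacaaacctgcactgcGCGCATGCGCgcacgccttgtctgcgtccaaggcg
Cox6a1 (chr5:115349086-115349145, minus strand): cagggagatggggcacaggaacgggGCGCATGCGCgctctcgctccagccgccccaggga
Atp5g2 (chr15:102671055-102671114, minus strand): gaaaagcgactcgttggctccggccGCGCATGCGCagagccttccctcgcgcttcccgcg
Atp5k (chr5:108434415-108434474, minus strand): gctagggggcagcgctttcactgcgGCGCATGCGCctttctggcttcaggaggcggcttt
The ETS core CCGGAAG (reverse CTTCCGG), bound by GABP, lay in 17 genes (23.6%, against 9.93%). The stretches from complexes I to V below have it in capitals, in either orientation.
Ndufs3 (chr2:90904722-90904773, minus strand): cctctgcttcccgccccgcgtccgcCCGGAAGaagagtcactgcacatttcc
Sdhd (chr9:50603864-50603920, minus strand): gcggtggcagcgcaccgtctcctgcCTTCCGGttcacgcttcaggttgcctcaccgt
Uqcr (chr10:80406856-80406912, minus strand): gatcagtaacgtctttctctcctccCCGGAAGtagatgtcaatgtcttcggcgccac
Cox6b1 (chr7:30626115-30626167, minus strand): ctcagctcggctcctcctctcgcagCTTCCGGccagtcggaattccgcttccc
Atp5j (chr16:84835006-84835062, minus strand): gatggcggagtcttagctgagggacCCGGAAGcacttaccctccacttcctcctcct
The YY1 core AAGATGGCG lay in 8 genes (11.1%, against 1.64%). In these 4 examples it follows the start of the transcript and includes the letters ATG.
Ndufs7 (chr10:80249463-80249491, plus strand): ggccgaggccAAGATGGCGgcgctggcgg
Ndufs4 (chr13:114388045-114388069, minus strand): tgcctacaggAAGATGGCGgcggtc
Ndufa9 (chr6:126849097-126849125, minus strand): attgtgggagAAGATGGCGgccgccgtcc
Atp5j2 (chr5:145191500-145191528, minus strand): ccaggacttcAAGATGGCGtcactcggtg
The core of estrogen-related receptors, TCAAGGTCA, lay in 2 genes (2.78%, against 0.466%), Atp5g3 and Sdhd. The Sp1 core GGGCGG lay in 33 (45.8%, against 38.2%). A match is a description of letters and not a bound site. Members with and without a core had close medians. For NRF1 these were 0.03 and 0.08 in HFD-IgG over SD and -0.19 and -0.17 in HFD-anti-VLA-4 over HFD-IgG. For ETS they were 0.11 and 0.03, and -0.19 and -0.17.

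**Figure D5:**
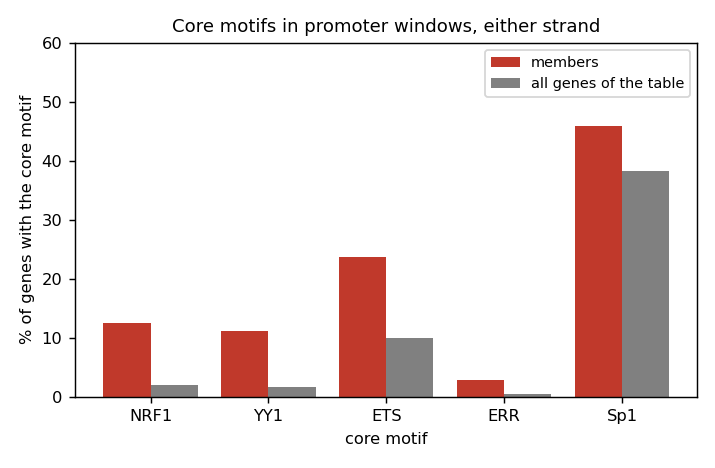
Share of genes (y axis, percent) whose promoter window holds each core motif (x axis), for the 72 members (red) and all 27025 genes of the table (grey). The NRF1 core is in 12.5% of members against 1.95% of all genes, and the Sp1 core in 45.8% against 38.2%.

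The genes around the complexes were examined through fixed lists. Their counts past 1.5-fold, here and in the following paragraphs, stand beside shares over all genes compared. These were 27.9% higher and 7.79% lower in HFD-IgG over SD, 7.11% and 23.3% in HFD-anti-VLA-4 over HFD-IgG, and 16.3% and 9.42% in HFD-anti-VLA-4 over SD. For bright genes they were 7.04% and 7.23%, 3.9% and 3.2%, and 7.61% and 7.07%. Of the 13 subunits encoded in mitochondrial DNA, 12 were on the array, with medians of 0.17, -0.21 and 0.01 in the 3 comparisons (-0.57, 0.00 and -0.53 with normexp). In HFD-IgG over SD 1 passed 1.5-fold upward and 0 downward, and in HFD-anti-VLA-4 over HFD-IgG 0 were higher and 2 lower. With normexp 6 passed downward in the first and 1 in the second. mt-Nd6, the complex I subunit on the light strand, was at 0.446 (SD), 1.04 (HFD-IgG) and 0.524 (HFD-anti-VLA-4) (1.22 and -0.99, or 1.02 and -0.61 with normexp). mt-Nd3 was at 179, 208 and 137 (-0.60 in HFD-anti-VLA-4 over HFD-IgG, and -0.35 with normexp, which is under 1.5-fold), and mt-Cytb, of complex III, at 529, 547 and 393 (-0.48, and -0.19 with normexp). Both were lowest on the HFD-anti-VLA-4 array. Of 19 or 20 compared genes of electron carriers and coenzyme Q synthesis, 0 passed 1.5-fold in any comparison. With normexp 6 passed downward and 1 upward in HFD-IgG over SD, and 5 and 1 in HFD-anti-VLA-4 over SD, and with quantile scaling 1 passed upward in HFD-anti-VLA-4 over HFD-IgG. Cycs, encoding cytochrome c, was at 54.3, 41.6 and 38.5, and Etfdh, which feeds electrons of fatty acid oxidation into coenzyme Q, at 75.4, 54.2 and 54.8. Both were low on the high-fat diet arrays (-0.38 and -0.48 in HFD-IgG over SD, and -1.03 and -1.11 with normexp).

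The 17 genes of the tricarboxylic acid cycle and pyruvate entry had a median of -0.22 in HFD-IgG over SD, 0.06 in HFD-anti-VLA-4 over HFD-IgG and -0.13 in HFD-anti-VLA-4 over SD. Their median was thus below 0 where that of the respiratory subunits was above it (0.07), which was not the case with normexp (-0.79 and -0.58). None (0 of 17) passed 1.5-fold in any comparison, whereas with normexp 15 passed downward in HFD-IgG over SD and 10 in HFD-anti-VLA-4 over SD. The other bright genes then had medians of -0.55 and -0.39. Dlst, of the oxoglutarate dehydrogenase complex, was at 26.3, 18.5 and 19.2, and Fh1, encoding fumarase, at 61.3, 43.7 and 43.2. Both were low on the high-fat diet arrays, at -0.51 and -0.49 in HFD-IgG over SD, and both at -1.23 with normexp. Ogdh was at 30.4, 22.1 and 21.4 (-0.46, and -1.05 with normexp).

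Assembly factors of complexes I and II outside the name pattern held no gene past 1.5-fold in any comparison (0 of 8 and 0 of 4), whereas with normexp 2 and 1 passed downward in HFD-IgG over SD. Of 6 complex III assembly genes 1 was higher in HFD-IgG over SD and 1 lower in HFD-anti-VLA-4 over HFD-IgG. This was Lyrm7, at 0.217 on the HFD-IgG array, the only array where it was measured above background, and at least 8.42-fold and at least 9.65-fold lower on the others. These bounds hold for the scaling to the 75th percentile, and over the 5 scalings the log2 values ran from 2.30 to 3.16 and from -3.31 to -0.76. Of 20 compared genes of complex IV assembly, 2 passed 1.5-fold upward and 0 downward in HFD-IgG over SD, and 0 and 2 in HFD-anti-VLA-4 over HFD-IgG. With normexp these counts were 3 and 7, and 0 and 1. Cox10, which makes heme for complex IV, was at 0.110, 0.350 and 0.0745. It was high on the HFD-IgG array, with differences of 1.66 and -2.23 (1.59 and -0.77 with normexp), and its probe holds 71.7% purines. Sco2, a copper chaperone, was at 34.9, 23.3 and 26.3 (-0.58 in HFD-IgG over SD, and -1.22 with normexp). Atpif1, the inhibitor of complex V, was at 7.96 (SD), 16.9 (HFD-IgG) and 13.3 (HFD-anti-VLA-4). Both high-fat diet arrays were high, by 1.09 (2.12-fold) and 0.75 against SD, and by 0.46 and 0.32 with normexp. It was the only 1 of 4 compared genes in its list past 1.5-fold.

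Of 14 regulators of respiratory genes, 0 passed 1.5-fold upward and 1 downward in HFD-IgG over SD (3 and 2 with normexp). Pprc1, a coactivator related to PGC-1alpha, was at 0.119, 0.0707 and 0.0711 (-0.76, but 1.15 with normexp). Esrra, an estrogen-related receptor, was at 5.75, 7.69 and 5.97 (0.42, and -0.18 with normexp). Ppargc1a, which encodes PGC-1alpha, was at 1.296, 1.17 and 1.09, and Tfam, which packages mitochondrial DNA, at 4.03, 4.43 and 4.65. Neither passed 1.5-fold. Of 5 compared uncoupling proteins and carriers, 3 passed 1.5-fold upward in HFD-IgG over SD and 0 downward (2 and 1 with normexp), where 27.9% of all genes passed upward and 7.79% downward. Ucp2, an uncoupling protein also abundant in macrophages, was at 0.186, 0.527 and 0.321 (1.502, and -0.72 in HFD-anti-VLA-4 over HFD-IgG, or -0.41 with normexp), and Ucp3 at 0.167, 0.490 and 0.304. Both were highest on the HFD-IgG array, as were all summed markers of Kupffer, endothelial and stellate cells, whose part in the result was not tested. Slc25a4, the muscle form of the ADP/ATP carrier, was at 1.14, 1.84 and 1.86 (0.69, and 0.36 with normexp, which is under 1.5-fold).

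Differences between these arrays also varied with the share of purines in the probe. The members' probes held 31.7% to 66.7% purines, with a median of 51.7%. In HFD-IgG over SD the members' median was 0.03 for probes of at most 45% purines (17 genes), 0.08 from 45% to 55% (43 genes) and 0.11 above 55% (25 genes), against -0.13, -0.11 and -0.06 for all bright genes. Over all genes compared, dim ones included, the medians were -0.09, 0.01 and 0.49. In HFD-anti-VLA-4 over HFD-IgG the members' medians were -0.07, -0.17 and -0.18, and those of the bright genes 0.05, 0.00 and -0.09. Those of all genes compared were 0.07, -0.03 and -0.39. The probe of the dim Ndufa4l2 holds 56.7% purines, and the part of this in its differences was not tested. The members lay above the bright genes in the first comparison, and below them in the second, in every class; the part of purine share in either result was not tested.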

How the data were processed

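Total RNA was labelled with Cy3 and hybridised to 3 arrays, 1 per group. Per the file headers, the scanner files hold a spot intensity that Agilent's Feature Extraction software (version 11.0.1.1) subtracted for background and detrended. In the authors' value table each entry is a ratio, found here to equal that intensity over the array's 75th percentile (largest relative deviation 2e-08, 23206 values per array, column medians 0.79, 0.80 and 0.81); its direction is that of expression. All columns were matched to samples (0 unmatched). Here the processed signal over non-control spots was divided by the 75th percentile, flagged spots were left out and repeated spots averaged. The brightest probe per gene name was used, and a gene was compared if well above background on either array; where the dimmer array was not, the fold is a lower bound. Genes past 1.5-fold were counted. Normexp used an offset of 50. The steps were tested on simulated data. Members, lists and motifs were chosen with earlier results of these data known. Every member may be named. Values by array are given for the 4 highest and 4 lowest members of a comparison, those past 1.5-fold, complex I core and complex II genes, isoforms, and up to 3 genes per list; other members named by array, Ppargc1a and Tfam were chosen after their values were seen. The values of 1 core subunit are not reported here. Hepatocyte, cholangiocyte, adipocyte, erythroid and muscle markers were also examined. Python 3.11.15, numpy 2.4.6, pandas 2.3.3, matplotlib 3.10.9, limma 3.58.1 and R 4.3.3 served throughout.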

Additional observations from a re-analysis of the deposited data

How the results depend on the processing

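No paired analysis was possible because each group is 1 array, and no replicate could be left out. Alternatives were quantile scaling, cyclic loess, the median of bright probes, normexp, the mean over probes, 2 other filters on dim probes, flagged spots kept, the deposited value table and a 2-fold threshold. No member past 1.5-fold with the scaling to the 75th percentile changed sign. Among members under 1.5-fold with that scaling, 56 changed sign with normexp only in HFD-IgG over SD. Some of these, such as Atp5b, then passed 1.5-fold downward. Cox6a2 was at 0.22 in that comparison, below 0 with quantile scaling and cyclic loess, and at 1.63 with normexp. Over the 5 scalings it thus passed 1.5-fold in opposite directions. Pprc1, a regulator that is no member, went from -0.76 to 1.15 with normexp in HFD-IgG over SD. With normexp the members' medians were -0.58 (HFD-IgG over SD), 0.058 (HFD-anti-VLA-4 over HFD-IgG) and -0.50 (HFD-anti-VLA-4 over SD); the medians otherwise moved by less than the scanner error. Members at least 1.5-fold higher in HFD-IgG over SD numbered 1, and 2 with quantile scaling, cyclic loess, normexp or bright probes and 3 with no filter; in HFD-anti-VLA-4 over SD they numbered 0, and 2 with normexp. Members at least 1.5-fold lower in HFD-IgG over SD numbered 0, and 4 with quantile scaling. With normexp they numbered 41, where the other bright genes had a median of -0.55. In HFD-anti-VLA-4 over HFD-IgG they numbered 1, and 0 with normexp or at 2-fold and 3 with no filter. In HFD-anti-VLA-4 over SD they numbered 2, and 27 with normexp (median of the other bright genes -0.39), 1 with bright probes and 0 at 2-fold. With quantile scaling and with cyclic loess Atp5s, matched by pattern only, passed as well. The cause of these changes was not tested, except that a higher threshold counts fewer genes and no filter more. Signal over background limits the dim isoforms Cox4i2, Cox6a2 and Cox6b2 and the dim Atp5s, while 80 of 88 members lay above the 75th percentile on all arrays.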

Other observations

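Other genes whose current RefSeq symbols would fit the name pattern stood on the array under older names and were left out of the counts above. There were 12. Ndufb1, a complex I accessory subunit, was at 0.593 (SD), 0.364 (HFD-IgG) and 0.326 (HFD-anti-VLA-4) (-0.70 and -0.16 in the first and second comparison). Ndufaf5, a complex I assembly factor, was at 0.294, 0.343 and 0.431, highest on the HFD-anti-VLA-4 array. Ndufaf6 was at 2.09, 2.28 and 2.28, Ndufaf7 at 3.52, 3.76 and 3.78 and Ndufaf8 at 0.766, 0.832 and 0.805. Atp5md, a small complex V subunit, was at 63.3, 64.9 and 58.3.

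Marker lists of other tissues were mostly dim. Summed over 8 striated muscle markers, the levels were 0.144 (SD), 0.612 (HFD-IgG) and 0.248 (HFD-anti-VLA-4), and the defining marker Ckm was not well above background on any array. Over 7 adipocyte markers they were 0.336, 7.72 and 4.34, and Adipoq was well above background only on the HFD-IgG array, at 0.168. Over 6 cholangiocyte markers the sums were 0.506, 0.951 and 0.753. In HFD-IgG over SD 4 of 6 compared were at least 1.5-fold higher and 1 lower. In HFD-anti-VLA-4 over SD 2 of 4 were higher and 2 lower. The 4 erythroid markers summed to 10.7, 13.9 and 15.7. The 10 hepatocyte markers summed to 4373, 4318 and 4144.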
